A study of Mus musculus with 6 samples.

Results

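Transcripts of 10 integrins and other niche adhesion receptors were followed in long-term hematopoietic stem cells (LT-HSCs), the rare marrow cells that renew the blood system. The genes were picked by name: the integrin alpha subunits Itga4, Itga5, Itga6, Itgal and Itgam, the beta subunits Itgb1 and Itgb7, the immunoglobulin-type receptors Pecam1 and Icam1, and the chemokine receptor Cxcr4. The deposited table of 11779 genes held 9 of the 10, and all 9 had enough counts to be tested among 10869 genes. Itga6 was not analysed here.

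The cells came from bone marrow of female mice aged 8 weeks and were sorted as Lin-, Sca1+, c-Kit+, CD48- and CD150+. The comparison had 2 groups of 3 libraries, numbered 1, 3 and 4 in each. WT was c-Myc fl/+ without Cre. HET was c-Myc fl/+ with Mx1-Cre, so mice of both groups inherited 1 floxed and 1 unmodified allele of Myc. Cre under the interferon-responsive Mx1 promoter was induced with 3 intraperitoneal doses of poly(I:C) at 6 mg/kg. Whether WT mice received the same injections is not stated separately, and the Mx1 promoter is also active in other interferon-responsive cells. The titles call the HET libraries KO, but their genotype label, c-Mycfl/+Mx1Cre, leaves 1 Myc allele untouched. Nothing in the labels says that each library came from a separate mouse, so p-values measure the spread between these libraries, which may be partly technical.

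Integrins are receptors made of 1 alpha and 1 beta chain that bind matrix proteins or counter-receptors on neighbouring cells. Blood stem cells use alpha4 and alpha5 paired with beta1 to hold on to VCAM-1 and fibronectin in the marrow, while CXCR4 draws them to CXCL12 made by niche cells. In earlier mouse work, loss of MYC in blood stem cells was linked to raised N-cadherin and integrin levels and to retention of the cells in the niche.

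Libraries held from 4249490 to 9886223 counts, with HET 1 the deepest. Values are CPM, a gene's counts divided by the scaled size of its library, and 3 counts correspond to between 0.298 and 0.715 CPM. The sort genes were present: Kit measured 1157 ± 68.9 CPM in WT, against 1193 ± 58.5 CPM in HET, and Slamf1, which encodes CD150, 73.8 ± 11.1 and 68.2 ± 14.04 CPM (SD, n = 3 each). Cd48, whose product was gated out, lay between 1.67 and 3.25 CPM in WT and between 3.67 and 8.96 CPM in HET. Myc itself measured 447, 427 and 542 CPM in WT 1, 3 and 4, against 294, 387 and 372 CPM in HET 1, 3 and 4. Its log2 fold change was -0.43 ± 0.12 (SE) with an edgeR adjusted p of 0.312, with no overlap between the groups.

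RefSeq promoter windows (250 bases before to 50 after the annotated start, 300 in all, GRCm38.p6) were found for 7 of the 10 genes, all but Itga6, Itgal and Pecam1. They were searched on both strands for 5 motifs: CACGTG, the E-box that MYC and its partner MAX recognise; CACGCG, a variant of it; GAGGAA, a core bound by ETS factors such as PU.1; TGTGGT, a RUNX core; and GGAAATTCC, an NF-kB motif that was added after the windows had been read. No 2 of these motifs overlap in the windows shown. The 4 windows below belong to Itgam and Icam1, whose groups did not overlap and whose fold changes had opposite signs, and to Itga5 and Cxcr4, which had the most similar profiles over the 6 libraries. Capitals mark the motifs found, on either strand, and sequences run 5′ to 3′ along the gene.
Itgam (chr7:128062390-128062689, plus strand): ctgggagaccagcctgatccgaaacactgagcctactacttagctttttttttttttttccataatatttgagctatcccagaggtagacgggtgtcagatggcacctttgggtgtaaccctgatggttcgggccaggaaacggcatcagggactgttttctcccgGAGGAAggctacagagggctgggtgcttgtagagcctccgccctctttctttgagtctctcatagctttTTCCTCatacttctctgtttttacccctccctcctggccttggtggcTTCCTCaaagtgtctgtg
Icam1 (chr9:21015690-21015989, plus strand): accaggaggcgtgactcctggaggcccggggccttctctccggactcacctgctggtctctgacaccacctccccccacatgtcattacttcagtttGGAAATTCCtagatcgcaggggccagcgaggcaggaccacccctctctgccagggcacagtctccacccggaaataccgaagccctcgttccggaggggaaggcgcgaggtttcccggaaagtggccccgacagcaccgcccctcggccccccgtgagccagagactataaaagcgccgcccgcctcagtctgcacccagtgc
Itga5 (chr15:103366742-103367041, minus strand): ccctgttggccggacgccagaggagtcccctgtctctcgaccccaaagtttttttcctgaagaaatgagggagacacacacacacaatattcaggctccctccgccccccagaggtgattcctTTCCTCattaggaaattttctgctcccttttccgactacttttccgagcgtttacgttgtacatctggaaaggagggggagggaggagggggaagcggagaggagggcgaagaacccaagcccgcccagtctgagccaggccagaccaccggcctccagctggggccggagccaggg
Cxcr4 (chr1:128592250-128592549, minus strand): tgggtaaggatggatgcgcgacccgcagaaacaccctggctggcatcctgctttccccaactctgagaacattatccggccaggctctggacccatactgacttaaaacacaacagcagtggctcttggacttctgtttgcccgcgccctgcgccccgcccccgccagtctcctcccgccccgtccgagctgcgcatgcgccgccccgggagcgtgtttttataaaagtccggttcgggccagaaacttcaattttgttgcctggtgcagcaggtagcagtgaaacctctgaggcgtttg
CACGTG was found in 0 of the 7 windows, against 7.15% of all 32851 promoter windows, and CACGCG in 0 of 7, against 9.27%. GAGGAA was found in 4 of 7 (Itga5, Itgam, Itgb1 and Itgb7), against 28.3%. Itgam held it 3 times, starting 84 and 15 bases before and 33 bases after the annotated start. GGAAATTCC was found in the Icam1 window, 153 bases before its annotated start, against 0.317% of all windows. TGTGGT was found in Itga4 and in 16.8% of all windows. These are matches of letters in 300 bases, and E-boxes outside the windows were not searched for.

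Across the 9 genes, none passed an adjusted p of 0.05 (edgeR quasi-likelihood fit over all genes), where 0.258% of all genes tested did. The fold change was positive for 8 of 9, against 50.7% of all genes tested. For 2 of these 8, Itgal and Itgb1, the sign turned in 1 alternative fit each. The median log2 fold change was 0.36, against 0.00 over all genes. An unadjusted p under 0.05 was reached by 5 of 9 (Itga5, Itgam, Itgb7, Pecam1 and Icam1), against 5.22% of all genes. DESeq2 gave the same count and limma-voom gave 4. Leaving out 1 library gave from 2 (without HET 3) to 6 (without HET 1). In 2 of 9 (Itgam and Pecam1) every HET library lay above every WT library, against 4.69% of all genes, and in 1 of 9 (Icam1) all HET libraries were the lower ones, against 5.64%. The median deviation of the 9 genes from their WT mean was -0.13, 0.10 and 0.00 log2 units in WT 1, 3 and 4, against 0.28, 0.43 and 0.37 in HET 1, 3 and 4. The WT deviations of each gene average 0 by construction, so the HET values restate the fold changes library by library. The genes were chosen with results of these libraries known, so these counts describe the set and do not test it.

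**Figure D1:**
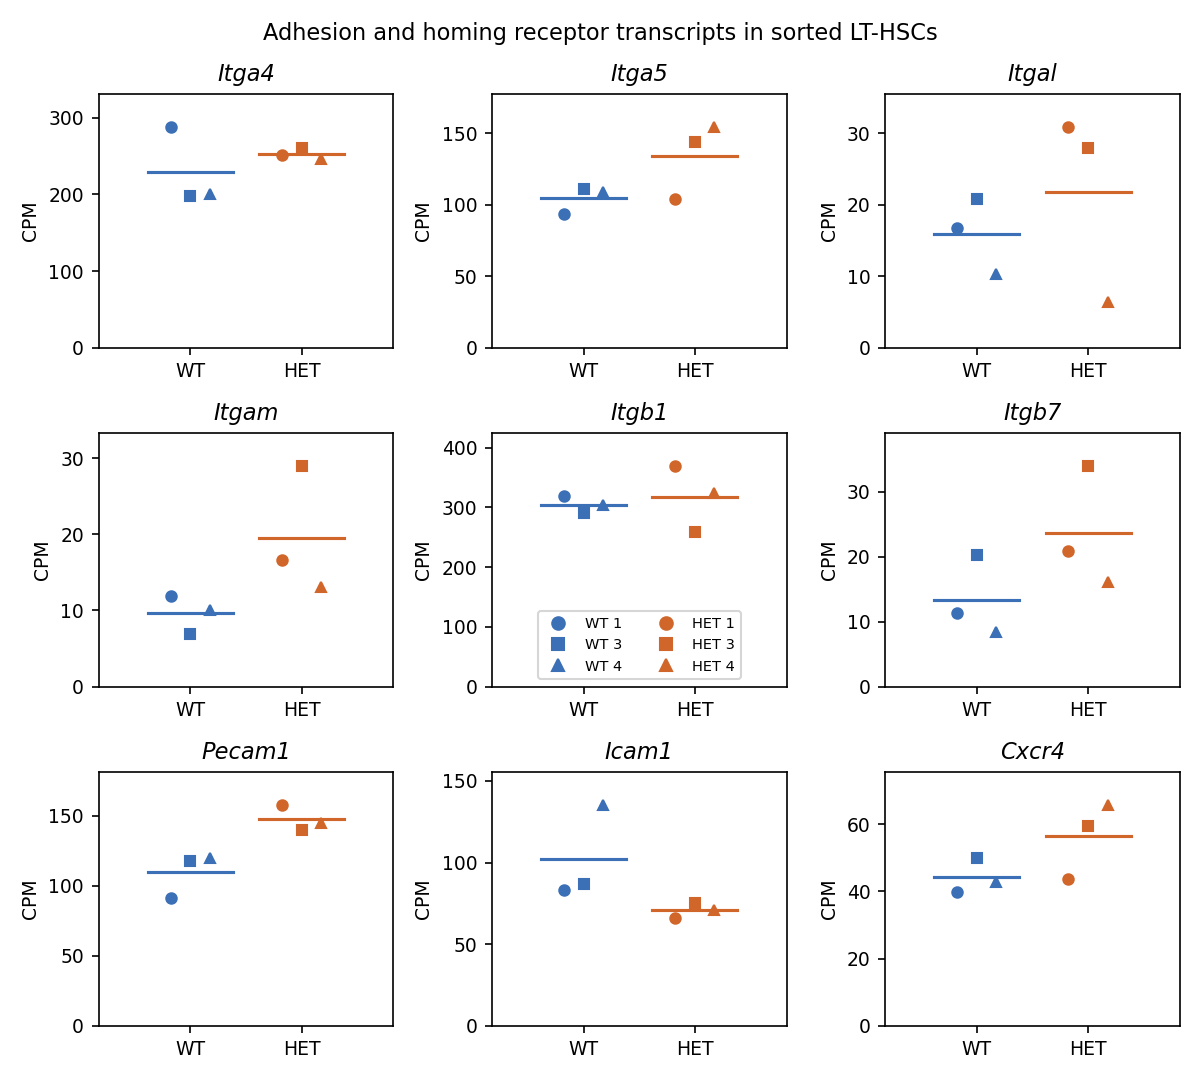
CPM of the 9 measured genes in each library (y axis from 0; WT blue, HET orange; circles, squares and triangles are libraries 1, 3 and 4; bars are group means, n = 3). Pecam1 and Itgam lie higher and Icam1 lower in all 3 HET libraries, and the other 6 genes overlap between groups.

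Itga4 encodes the alpha4 chain, which pairs with beta1 to bind VCAM-1 and fibronectin or with beta7 to bind the gut addressin MAdCAM-1 (GRCm38 chromosome 2, 79255426 to 79333123, plus strand). It measured 288, 198 and 201 CPM in WT 1, 3 and 4, against 251, 260 and 247 CPM in HET 1, 3 and 4. WT 1 was the highest of all 6 libraries, so the groups overlapped, while the 3 HET libraries lay close together. HET differed from WT by 0.14 ± 0.14 on the log2 scale (SE, 95% interval -0.14 to 0.42, edgeR adjusted p = 0.995), with 0.34 without WT 1 (adjusted p = 0.598), 0.05 without WT 3 and 0.06 without WT 4. Of its exonic bases 8.04% are shared with the opposite-strand gene Cerkl, and whether reads were counted by strand is not known.

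Itga5 encodes the alpha5 chain of the classical fibronectin receptor (chromosome 15, 103344286 to 103366763, minus strand). It measured 93.5, 111 and 109 CPM in WT, against 104, 144 and 155 CPM in HET 1, 3 and 4. HET 3 and HET 4 lay above all WT libraries, and HET 1 lay within the WT range. HET exceeded WT by 0.36 ± 0.15 on the log2 scale (SE, 95% interval 0.04 to 0.67, adjusted p = 0.844). Without HET 1 it was 0.51 (adjusted p = 0.131), the smallest adjusted p that any alternative fit gave for this gene, and without HET 4 it was 0.25 (adjusted p = 0.998).

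Itgb1 encodes the beta1 chain shared by alpha4, alpha5 and many other alpha chains (chromosome 8, 128685654 to 128733200, plus strand). It measured 319, 290 and 304 CPM in WT, against 370, 258 and 324 CPM in HET 1, 3 and 4. The HET libraries spread to both sides of the WT libraries. The log2 fold change of 0.06 ± 0.13 (SE, 95% interval -0.20 to 0.32, adjusted p = 0.995) turned to -0.06 without HET 1. The interval bounds the HET level between 0.871 and 1.25 times the WT level.

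Itgb7 encodes the beta7 chain, the partner of alpha4 in gut-homing lymphocytes (chromosome 15, 102215995 to 102231944, minus strand). It had between 35 and 210 counts per library, and measured 11.4, 20.3 and 8.35 CPM in WT, against 20.8, 34.0 and 16.2 CPM in HET 1, 3 and 4. WT 3 reached into the HET range, above HET 4. The log2 fold change was 0.81 ± 0.35 (SE, 95% interval 0.08 to 1.55, adjusted p = 0.860), with 0.47 without HET 3 and 1.25 without WT 3.

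Within a library, the ratio of Itga4 to Itgb1 per exonic length was 0.264, 0.200 and 0.193 in WT 1, 3 and 4, against 0.198, 0.294 and 0.222 in HET 1, 3 and 4. This ratio does not depend on library scaling, and its groups overlapped. The ratio of Itga5 to Itgb1 was 0.285 ± 0.0388 in WT, against 0.363 ± 0.118 in HET (SD, n = 3 each), with HET 1 at 0.232 and HET 3 and HET 4 at 0.461 and 0.395. That of Itgb1 to Itgb7 was 17.8 ± 7.58 in WT, against 10.3 ± 4.50 in HET, again with overlapping libraries. In each library Itgb1 was the more abundant of the 2 beta chains, between 5.15 and 24.7 times per length.

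Itgal encodes alphaL (CD11a), which joins beta2 to form the leukocyte integrin that binds ICAM-1 (chromosome 7, 127296260 to 127335138, plus strand). It measured 16.8, 20.9 and 10.3 CPM in WT, against 30.9, 27.9 and 6.43 CPM in HET 1, 3 and 4. HET held both the highest library and the lowest one, with a coefficient of variation of 61.4%. Its estimate was 0.45 ± 0.50 on the log2 scale (SE, 95% interval -0.65 to 1.55, adjusted p = 0.995). It ran from 0.09 without HET 1 to 0.88 without HET 4 and was -0.14 with library weights in limma-voom, so no direction is given.

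Itgam encodes alphaM (CD11b), the partner of beta2 in the myeloid complement receptor (chromosome 7, 128062640 to 128118491, plus strand), and its promoter window is the one with 3 GAGGAA matches above. Its raw counts were 66, 38 and 42 in WT 1, 3 and 4, against 168, 133 and 67 in HET 1, 3 and 4. In CPM this was 11.9, 6.95 and 10.02 in WT, against 16.7, 29.0 and 13.1 in HET, so the groups did not overlap, with HET 3 well above the others. The log2 fold change was the largest of the 9 genes, 1.02 ± 0.36 (SE, 95% interval 0.27 to 1.76, adjusted p = 0.630), and was 0.63 without HET 3. In the annotation used here 68.7% of its exonic bases are also assigned to the same-strand gene Gm49368, so reads of the pair may have been divided or dropped, and the value is uncertain.

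The common partner of the last pair, Itgb2, measured 65.9, 76.7 and 53.7 CPM in WT, against 80.4, 52.8 and 77.9 CPM in HET 1, 3 and 4, with a log2 fold change of 0.11 ± 0.19 (SE). The summed level of 10 neutrophil genes (all 10 in the table) ran from 147 to 657 CPM in WT and from 210 to 479 CPM in HET. HET 3, the library with the highest Itgam, had a sum of 210 CPM, close to the 230 CPM of HET 4. The listed genes did not move together. Among the HET libraries, HET 3 was lowest for S100a8, S100a9, Ngp, Camp, Ltf and Lcn2. It was highest for Prtn3, Elane and Ctsg, and in between for Mpo. The 7 monocyte genes in the table, of 8 listed, summed to 157 to 209 CPM in WT, against 178 to 192 CPM in HET. Of T and NK genes 2 of 8 were in the table (10.5 to 20.2 CPM in WT, 14.4 to 25.8 CPM in HET). Cd48, a leukocyte gene gated against in the sort, was higher in all 3 HET libraries (log2 fold change 1.41 ± 0.61 SE, edgeR adjusted p = 0.849). The part of these cells in the leukocyte integrin values was not tested. In bulk samples, fewer cells of a type and less RNA per cell cannot be told apart.

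Pecam1 encodes PECAM-1 (CD31), an immunoglobulin-type receptor of endothelium, platelets and stem cells that binds itself across cell contacts (chromosome 11, 106654217 to 106750628, minus strand). It measured 91.5, 117 and 120 CPM in WT, against 158, 140 and 145 CPM in HET 1, 3 and 4. All HET libraries lay above all WT libraries, and HET 1 was the highest. The group means were 110 ± 15.7 and 147 ± 9.51 CPM (SD, n = 3 each). The log2 fold change was 0.43 ± 0.14 (SE, 95% interval 0.14 to 0.72), a 1.35-fold difference. Its unadjusted edgeR p of 0.00512 was the smallest of the 9 genes and ranked 120th of all genes, with an adjusted p of 0.464 (between 0.319 and 0.998 over the alternative fits). Leaving out any 1 library gave log2 fold changes from 0.31 to 0.50.

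Other genes of endothelium and of megakaryocytes give the setting for Pecam1. The endothelial markers Emcn, a sialomucin, and Kdr, a VEGF receptor, had log2 fold changes of -0.33 ± 0.26 and 0.34 ± 0.36 (SE), and 5 of the 8 endothelial and stromal genes listed were in the table, while Cdh5, Lepr and Col1a1 were not analysed here. Without Pecam1, the 4 remaining genes summed to between 41.5 and 48.8 CPM in WT and between 33.8 and 52.8 CPM in HET, so the groups overlapped. Emcn alone was at 19.7 to 30.9 CPM over the 6 libraries, and which cells its transcripts came from is not known. The 10 megakaryocyte and platelet genes, all in the table and some of them also expressed by stem cells, summed to 1260 to 1344 CPM in WT, against 1481 to 1643 CPM in HET, without overlap and highest in HET 1. Of these 10 genes 0 passed, against 0.258% of all genes tested. All 10 fold changes were positive, against 50.7% of all genes, with a median of 0.22. Only 1 of the 10, the integrin chain gene Itga2b, had groups that did not overlap. That is 10% of the list, against 10.3% of all genes in either direction. The mean of Itga2b went from 289 (WT) to 438 (HET), so this gene carried a large part of the difference in the sums. The separation did not rest on Itga2b alone: without it, every HET sum still lay above every WT sum. Pf4, which encodes a platelet granule chemokine, was 56.8, 36.4 and 18.6 CPM in WT, against 112, 32.5 and 49.5 CPM in HET 1, 3 and 4, so the groups overlapped. Without HET 1, the Pecam1 value was 0.38 on the log2 scale. The megakaryocyte and platelet sums of HET 3 (1481 CPM) and HET 4 (1498 CPM) also lay above every WT sum. The part of endothelial cells or megakaryocytes in the Pecam1 value was not tested.

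Icam1 encodes ICAM-1, the inducible ligand of the beta2 integrins and a target of NF-kB signalling (chromosome 9, 21015985 to 21028817, plus strand). It was the only gene of the 9 with a negative fold change. It measured 83.2, 87.1 and 135 CPM in WT, against 66.0, 75.5 and 70.9 CPM in HET 1, 3 and 4. The groups did not overlap, with HET lower, and WT 4 stood well above the other two. The log2 fold change was -0.52 ± 0.18 (SE, 95% interval -0.89 to -0.15, adjusted p = 0.564), or 0.695 of the WT level. Without WT 4 it was -0.27 (adjusted p = 0.998), so the size rests largely on that library. An antisense gene, Gm47079, covers 11.7% of its exonic bases. The GGAAATTCC match above lies in its promoter window.

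The within-library ratio of Pecam1 to Icam1 per exonic length was 0.770, 0.944 and 0.619 in WT 1, 3 and 4, against 1.68, 1.29 and 1.43 in HET 1, 3 and 4. Each HET library had more Pecam1 than Icam1 per length and each WT library less. The pair was chosen after the values were seen, and since Pecam1 was higher and Icam1 lower in every HET library, the ratio had to separate the groups.

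Cxcr4 encodes the CXCL12 receptor that anchors stem cells in the marrow (chromosome 1, 128588199 to 128592293, minus strand). It measured 39.9, 49.9 and 42.7 CPM in WT, against 43.7, 59.5 and 65.9 CPM in HET 1, 3 and 4. As for Itga5, HET 3 and HET 4 lay above all WT libraries and HET 1 lay within their range. The difference was 0.35 ± 0.20 on the log2 scale (SE, 95% interval -0.07 to 0.76, adjusted p = 0.980), with 0.50 without HET 1 (adjusted p = 0.463) and 0.22 without HET 4 (adjusted p = 0.998). Cxcl12, the ligand gene, was at 0.397 to 1.96 CPM in the 6 libraries and was not tested.

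**Figure D2:**
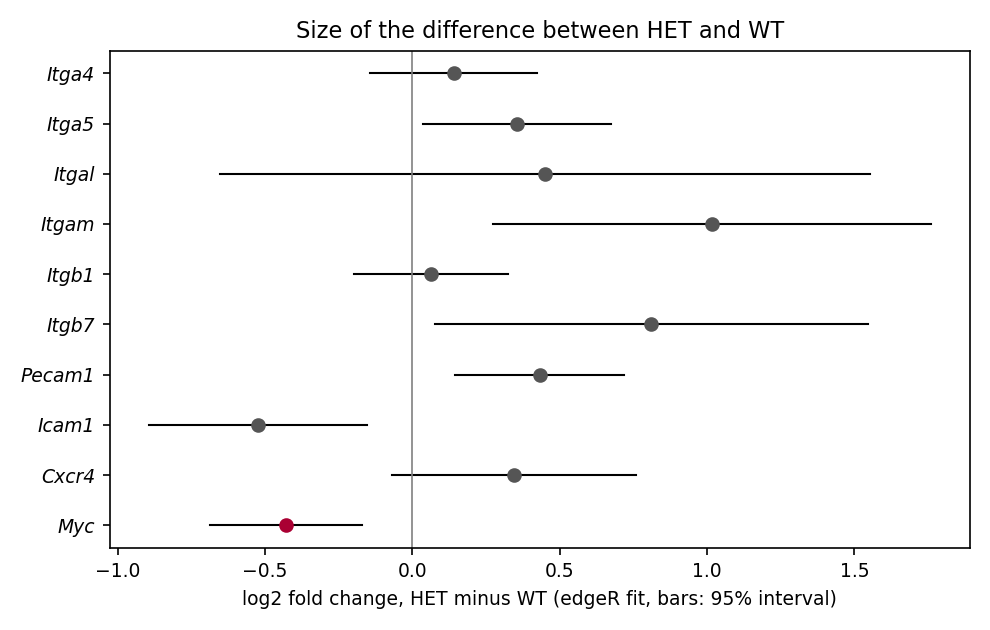
Log2 fold change of HET against WT from the edgeR fit (points) with 95% intervals (bars) for the 9 genes and, in red, Myc. The intervals of Itga5, Itgam, Itgb7 and Pecam1 lie above 0 and those of Icam1 and Myc below it, before any adjustment for the 10869 genes tested.

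Levels can be compared between genes per kb of exonic length. Itgb1 was highest, at 74.6 ± 3.53 CPM per kb in WT, against 77.8 ± 13.7 in HET (SD, n = 3 each), and no library of the other 8 genes reached it. It stood at percentile 95.95 of all genes tested in WT. A middle group followed, ordered here by the mean over all 6 libraries, with the WT and then the HET value of each gene: Cxcr4 (24.4 ± 2.87 and 31.2 ± 6.30), Itga5 (21.2 ± 1.96 and 27.2 ± 5.43), Pecam1 (17.6 ± 2.52 and 23.7 ± 1.53), Icam1 (23.4 ± 6.68 and 16.2 ± 1.09) and Itga4 (16.4 ± 3.67 and 18.1 ± 0.499), in which each gene overlapped its neighbour. The order within this group differed between WT and HET: Icam1 lay above Itga5 and Pecam1 in the WT means and below Itga4 in the HET means. Itgb7 (4.82 ± 2.25 and 8.55 ± 3.34), Itgam (1.92 ± 0.498 and 3.90 ± 1.66) and Itgal (2.43 ± 0.814 and 3.31 ± 2.03) formed a low group, in which each again overlapped its neighbour, apart from Itga4. With the longest transcript as the length, Pecam1 (37.3 CPM per kb over all 6 libraries) and Icam1 (34.1) moved above Cxcr4 (27.9), while Itgb1 stayed highest and Itgb7, Itgal and Itgam lowest.

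**Figure D3:**
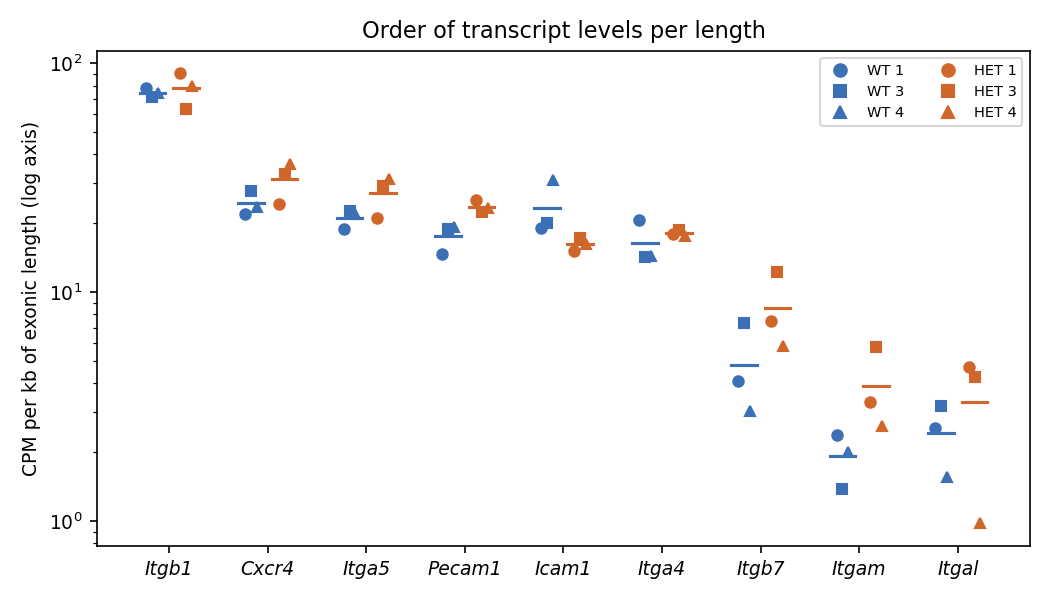
CPM per kb of exonic length (log axis) of the 9 genes, ordered by their mean over 6 libraries; symbols as for the CPM plot and bars are group means (n = 3). Itgb1 lies above all others, 5 genes overlap in the middle, and the Itgb7, Itgam and Itgal values are the lowest.

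Across the 6 libraries the closest pair of the 9 genes was Itga5 and Cxcr4 (Pearson r = 0.976 of log2 CPM). The next pair, Itga4 and Itgam, had r = 0.63, and the most opposed pair was Itgb7 and Icam1 (r = -0.70). Among 8033 candidate genes, the most similar to Pecam1 was Tln1, which encodes talin (r = 0.992), followed by Ltn1 (0.969) and Aagab (0.958). Those closest to Itga4 were Trpm7 (0.992), Ppip5k2 (0.988) and Taf15 (0.98), and those closest to Itgb1 were Acsl1 (0.986), Ranbp6 (0.983) and Skiv2l2 (0.978). For Cxcr4 they were Apoe (0.986), Krba1 (0.977) and Tnfrsf1a (0.977). The same 6 libraries, their depths and group difference enter every value, and between 37 and 112 genes exceeded r = 0.9 with each of these 4 genes.

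Over the whole integrin family, the 6 chains above included, 9 of 18 listed alpha subunits and 7 of 9 beta subunits were tested. In either direction 0 passed, against 0.258% of all genes tested. Of the alpha chains 6 had positive and 3 negative fold changes (median 0.16), and of the beta chains 5 and 2 (median 0.06, and -0.04 without HET 1). Over all genes tested, 50.7% had a positive fold change. Itga2b encodes alphaIIb (CD41), the platelet fibrinogen receptor chain, and had the smallest p of the alpha chains. It measured 316, 289 and 263 CPM in WT, against 561, 364 and 391 CPM in HET 1, 3 and 4, without overlap and highest in HET 1. Its log2 fold change was 0.60 ± 0.14 (SE, edgeR adjusted p = 0.132), with 0.0232 in DESeq2 and 0.38 on the log2 scale without HET 1. Itgb3, its partner, had 0.04 ± 0.13 (SE). Itgav had 0.16 ± 0.18 and Itga3 -0.63 ± 0.37. Itgb4, the laminin receptor chain of epithelia, measured 7.22 ± 3.50 CPM in WT, against 3.93 ± 2.55 CPM in HET (SD, n = 3 each), a difference of -0.91 ± 0.63 on the log2 scale (SE, adjusted p = 0.995).

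**Figure D4:**
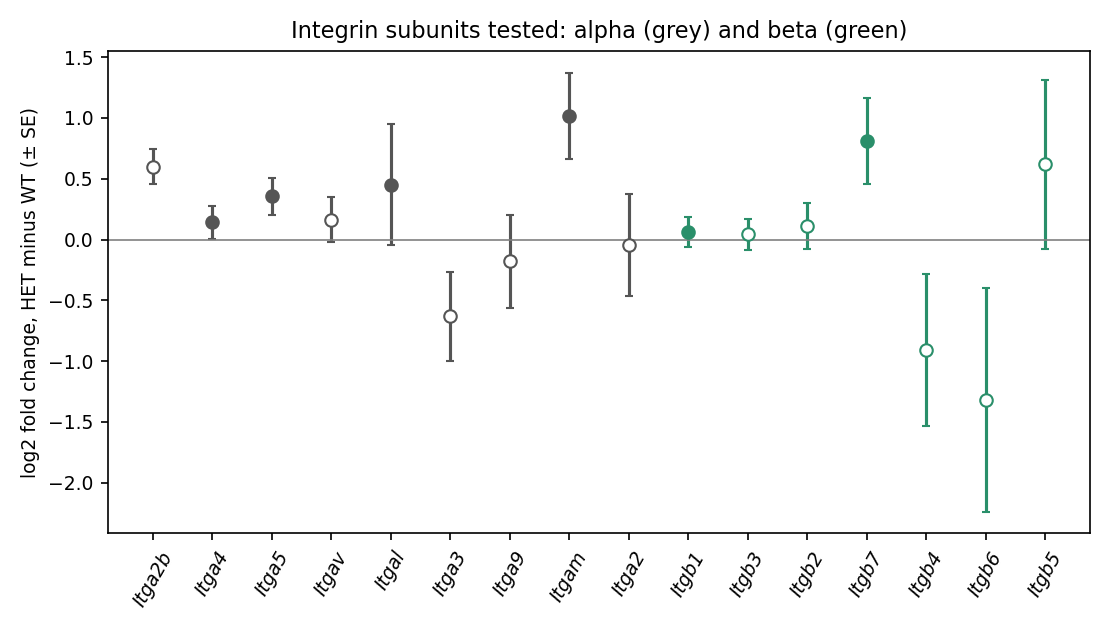
Log2 fold change ± SE (edgeR fit) of the 9 alpha (grey) and 7 beta (green) integrin subunits tested, ordered within each class by WT level in CPM. Filled points are the 6 integrins among the genes followed here. Itga2b has 0.60 and Itgam 1.02, and error bars are mostly wider toward the right of each class, where levels are lower.

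Inside the cell, talin, kindlin and focal adhesion kinase link integrins to actin and to signalling. Of 27 tested genes of this machinery 0 passed, 18 had positive and 9 negative fold changes, and the median was 0.07 (0.00 without HET 1). Over all genes tested, 0.258% passed and 50.7% had a positive fold change. Tln1, the talin that activates integrins, measured 1980, 2146 and 2184 CPM in WT, against 2438, 2329 and 2306 CPM in HET 1, 3 and 4. The groups did not overlap, but the difference was small (log2 fold change 0.16 ± 0.08 SE, adjusted p = 0.952). Ptk2, which encodes focal adhesion kinase, was 32.7, 33.7 and 58.2 CPM in WT, against 17.5, 27.9 and 26.9 CPM in HET (log2 fold change -0.79 ± 0.26 SE, adjusted p = 0.541). Of 18 tested integrin ligands and immunoglobulin-type receptors, Pecam1 and Icam1 included, 0 passed, with 8 positive and 10 negative values. Vcam1, the niche ligand of alpha4, was low in these cells, at 4.21 ± 1.97 CPM in WT, against 4.35 ± 0.244 CPM in HET (SD, n = 3 each).

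Of 23 tested genes of CXCR4 signalling and its regulators 0 rose and 1 fell, and the list's median was 0.04. Of all 10869 genes tested, 4 rose and 24 fell (0.258% in either direction). The gene that fell was Rgs2, a regulator that shortens signalling by G protein-coupled receptors. It measured 200, 180 and 191 CPM in WT, against 109, 80.9 and 59.6 CPM in HET 1, 3 and 4, with HET lower throughout (log2 fold change -1.19 ± 0.17 SE, adjusted p = 0.00284). It passed in every alternative fit, at adjusted p-values from 3.36e-07 to 0.0496. Whether Rgs2 acts on CXCR4 signalling in these cells was not tested. Nedd4, a ubiquitin ligase, had -0.23 ± 0.10 (SE, adjusted p = 0.844). The G protein and GTPase genes of the list, such as Gnai2 (0.07 ± 0.09), did not pass.

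Of 6 tested chemokine and lipid homing receptors 0 passed, against 0.258% of all genes tested (median -0.19, and 0.01 without WT 3). S1pr1 encodes the sphingosine 1-phosphate receptor that draws cells out of tissues into blood and lymph. It measured 89.1, 59.3 and 73.0 CPM in WT, against 45.8, 47.5 and 35.5 CPM in HET 1, 3 and 4. The groups did not overlap, and the log2 fold change was -0.78 ± 0.19 (SE, edgeR adjusted p = 0.143). With DESeq2 the adjusted p was 0.0420.

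Of 16 tested niche retention receptors 0 rose and 1 fell (median 0.01, and -0.14 without HET 3), against 0.258% of all genes in either direction. The gene was Fzd4, a receptor for WNT and norrin ligands, at 57.2, 38.8 and 40.8 CPM in WT, against 22.4, 12.6 and 10.5 CPM in HET 1, 3 and 4 (log2 fold change -1.56 ± 0.28 SE, adjusted p = 0.0117). It missed the threshold without WT 1 (adjusted p = 0.194), HET 3 (0.0546) or HET 4 (0.142). Notch1 had -0.23 ± 0.15 (SE). Of 11 tested selectins, cadherins and sialomucins 0 passed, with 8 positive and 3 negative values (median 0.12, and 0.00 without HET 1). The positive share over all genes tested was 50.7%. Podxl, which encodes the sialomucin podocalyxin, was 45.6, 47.6 and 59.6 CPM in WT, against 29.3, 35.8 and 33.3 CPM in HET (-0.64 ± 0.20 SE, adjusted p = 0.463), and Cd93 had 0.16 ± 0.11.

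**Figure D5:**
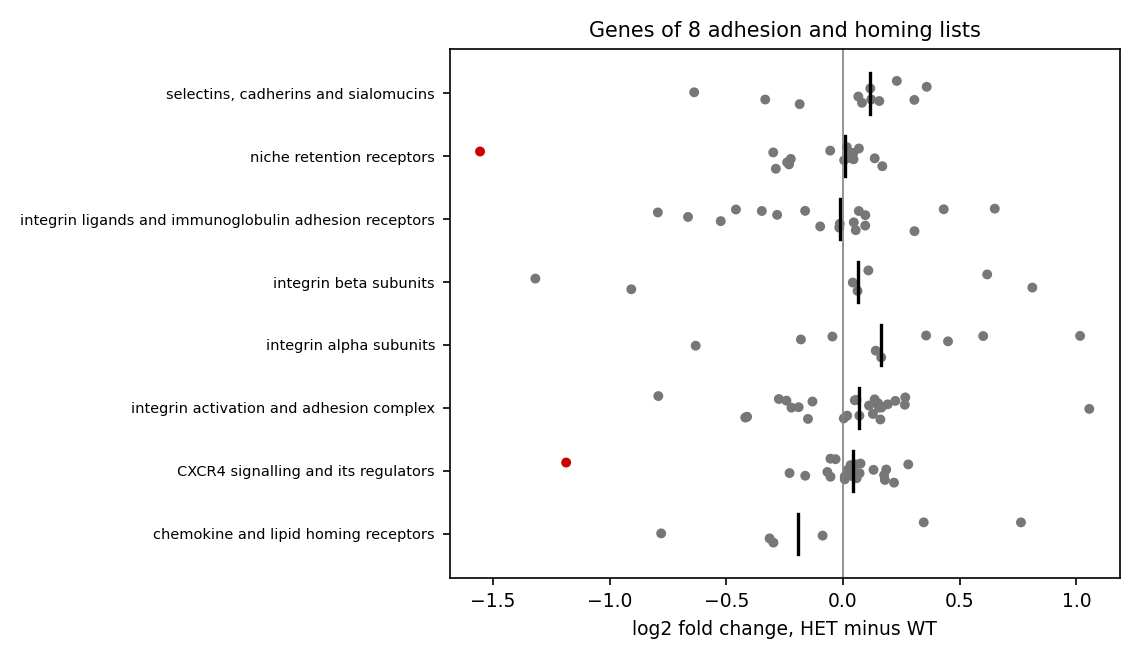
Log2 fold change of HET against WT for every tested gene of 8 adhesion and homing lists (grey points; red points passed an adjusted p of 0.05; black bars are list medians; vertical jitter has no meaning). The 2 red points are Fzd4 and Rgs2, where 0.258% of all genes tested passed, and all 8 medians lie between -0.19 and 0.16.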

How the data were processed

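RNA-seq of 6 sorted libraries was available as 1 deposited table. The authors deposited whole-number read counts per gene, and the values were used as deposited. The submitters' processing notes name FastQC, STAR 2.5.2b, edgeR, limma and mm10 without a role. Which counter, annotation and strand setting were used is not known, and protocol fields that describe another study were not used.

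Genes were tested with edgeR 4.0.16 in R 4.3.3 (filterByExpr, TMM scaling, robust dispersions, quasi-likelihood F test for the group, two-sided, Benjamini-Hochberg adjustment over 10869 genes, threshold 0.05). Standard errors come from the F statistic. Between libraries of a group, the biological coefficient of variation came to 20.7%. CPM use the TMM-scaled size of each library, and log2 values for correlations used a prior count of 2. Intervals are at 95%. Positions and exonic lengths come from GENCODE M21 on GRCm38, the assembly called mm10, and 18 date-like symbols were mapped back through gene IDs. Of 242 listed symbols 55 were not matched and 1 was matched by a current symbol.

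Members and lists were chosen with earlier results of these data known. Named genes were the members, Myc, and the 2 genes of smallest p in each list (any gene that passed is also named). For Pecam1, which had the smallest p, and for Itga4, Itgb1 and Cxcr4, the 3 most correlated genes were named, among those averaging 4 or more log2 CPM, leaving out predicted genes. Itgb2, Itgb3, Itgav, Itga3, Vcam1, Cxcl12, Gnai2, the markers Kit, Slamf1, Cd48, Pf4, Emcn and Kdr, the neutrophil genes and the ratios were named after values were seen.

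Alternatives were RLE and upper quartile scaling, no filter or 5 CPM in 3 libraries, DESeq2 1.42.0, limma-voom (limma 3.58.1), the same with weights per library, a block for the number in the titles, a threshold of 0.1 and leaving out each library. The fit was tested on simulated counts for this comparison (3 simulations of a mean of 10723 genes, 200 changed in each). It recovered 63.4% of genes changed by 1 log2 unit and 92.5% of those changed by 2, with 6.85% false calls. Smaller changes, such as the median of 0.36 of the 9 genes, were not simulated, so recovery at that size is not known. Only 28 genes were called in these data. With fewer changed genes than the 200 simulated, the adjustment is stricter, so recovery here may be lower.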

Additional observations from a re-analysis of the deposited data

How the results depend on the processing

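The count of called members was 0 in all 15 alternatives, including an adjusted p of 0.1, and none of the 14 other fits reversed Itga4, Itga5, Itgam, Itgb7, Pecam1, Icam1 or Cxcr4. Reversals were Itgal with library weights in limma-voom (-0.14) and Itgb1 without HET 1 (-0.064), and the cause was not tested. In fits that left out 1 library, the median of the members ran from 0.25 to 0.45, the members whose groups do not overlap from 3 to 5, those with an unadjusted p under 0.05 from 2 (without HET 3) to 6, Itgb1 from -0.064 to 0.19 and Myc from -0.50 to -0.32. Smaller groups overlap less often by construction. List medians ran from -0.29 to 0.01 for homing receptors, 0.00 to 0.13 for selectins, cadherins and sialomucins, -0.14 to 0.06 for ligands, -0.14 to 0.05 for niche retention receptors, 0.14 to 0.31 for alpha chains and -0.04 to 0.15 for beta chains. All genes called numbered 28, and from 10 (without HET 4) to 68 (without HET 1) when 1 library was left out, 11 without WT 1, 57 with DESeq2 and 43 with library weights. With the library number as a replicate block they numbered 49, and still 0 members. Whether the numbers pair the libraries is not stated. Correlations of deviations from the group means were 0.11, -0.04 and 0.07 for same-numbered libraries 1, 3 and 4. Only libraries 1 correlated best with their own number in both directions. With 3 libraries per group, these values cannot settle whether libraries were paired. Itga2b had an edgeR adjusted p of 0.0303 with the block and 0.0337 without HET 3. Counts limit Itgal, Itgam and Itgb7 most, with as few as 33, 38 and 35 counts in 1 library.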
